A study of Mus musculus with 5 samples.

Results

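The genes described here mark the walls of blood vessels: 33 genes of endothelial cells, which line the vessels, and of mural cells, the pericytes and smooth muscle cells around them. They were taken by symbol from the authors' lists of regions near transcription start sites, and a gene with no line in a list counts as having no region there. The background was all 21031 mouse protein-coding genes that have a curated RefSeq transcript, and these are 33 of them. The lists come from striatal nuclei of 8-week-old C57BL/6 mice that were sorted on NeuN, an antigen of neuronal nuclei in general, and labelled as medium spiny neurons, the main projection neurons of the striatum. There were 4 immunoprecipitations, with antibodies against H3K4me3, H3K27me3, H3K27ac and RNA polymerase II (Pol II), and 1 input library, with 1 library each. The sources used here do not give the number of mice behind a library. Without replicates, a listing or score has no error and no test, and read depth is unknown.

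Brain endothelial cells form the blood-brain barrier through tight junctions and selective transporters. Pericytes, which adjoin them in capillaries, and smooth muscle cells, which ring arterioles, control vessel stability and diameter. The genes described here are used as markers of these cells rather than of neurons. A Polycomb repressive complex lays down H3K27me3 over genes of other lineages, while H3K4me3 marks promoters, in particular CpG-rich ones. H3K27ac and Pol II accompany active transcription. A promoter with both H3K4me3 and H3K27me3 is called bivalent.

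The vessel genes were covered by H3K27me3 and carried few active marks in the sorted nuclei. An H3K27me3 region was listed for 30 of the 33 genes, against 42.5% of all coding genes. H3K4me3 was listed for 17 of 33, against a background of 68.4%. H3K27ac was listed for 4 (Vtn, Egfl7, Ramp2 and Esam), against 51.5%, and Pol II for 1 (Vtn), against 41.7%. In the same lists the labelled cell type had its own markers: of 16 neuron markers, including Rbfox3, Ppp1r1b, Drd1 and Drd2, all 16 had H3K4me3 and H3K27ac, 15 had Pol II and 5 had H3K27me3.

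By combination, 16 genes had H3K4me3 and H3K27me3, a pair found at 24.2% of coding genes, and for 13 of them these were the only marks, against 13.4%. The count of 16 depends on how many regions are kept: in the upper 50% of each list by score it was 0, and in lists of the same length it was 1 (Vtn), as for H3K4me3 itself. A background for the pair was not computed in these settings. Another 14 genes had H3K27me3 as the only mark, against 18.2% of coding genes. Egfl7 and Ramp2 had H3K27ac in addition to the bivalent pair, Vtn had all 4 marks, and Esam had H3K4me3 and H3K27ac without H3K27me3. No region of any antibody was listed for Emcn, the endothelial sialomucin endomucin, or Tagln, the smooth muscle protein transgelin. Genes without a region make up 13.3% of the background, and these lists do not show whether their start sites were searched. The libraries are bulk, so H3K4me3 and H3K27me3 on the same nucleosomes, on different alleles or in different nuclei cannot be told apart, nor can a mark in few nuclei and a weak mark in all.

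**Figure D1:**
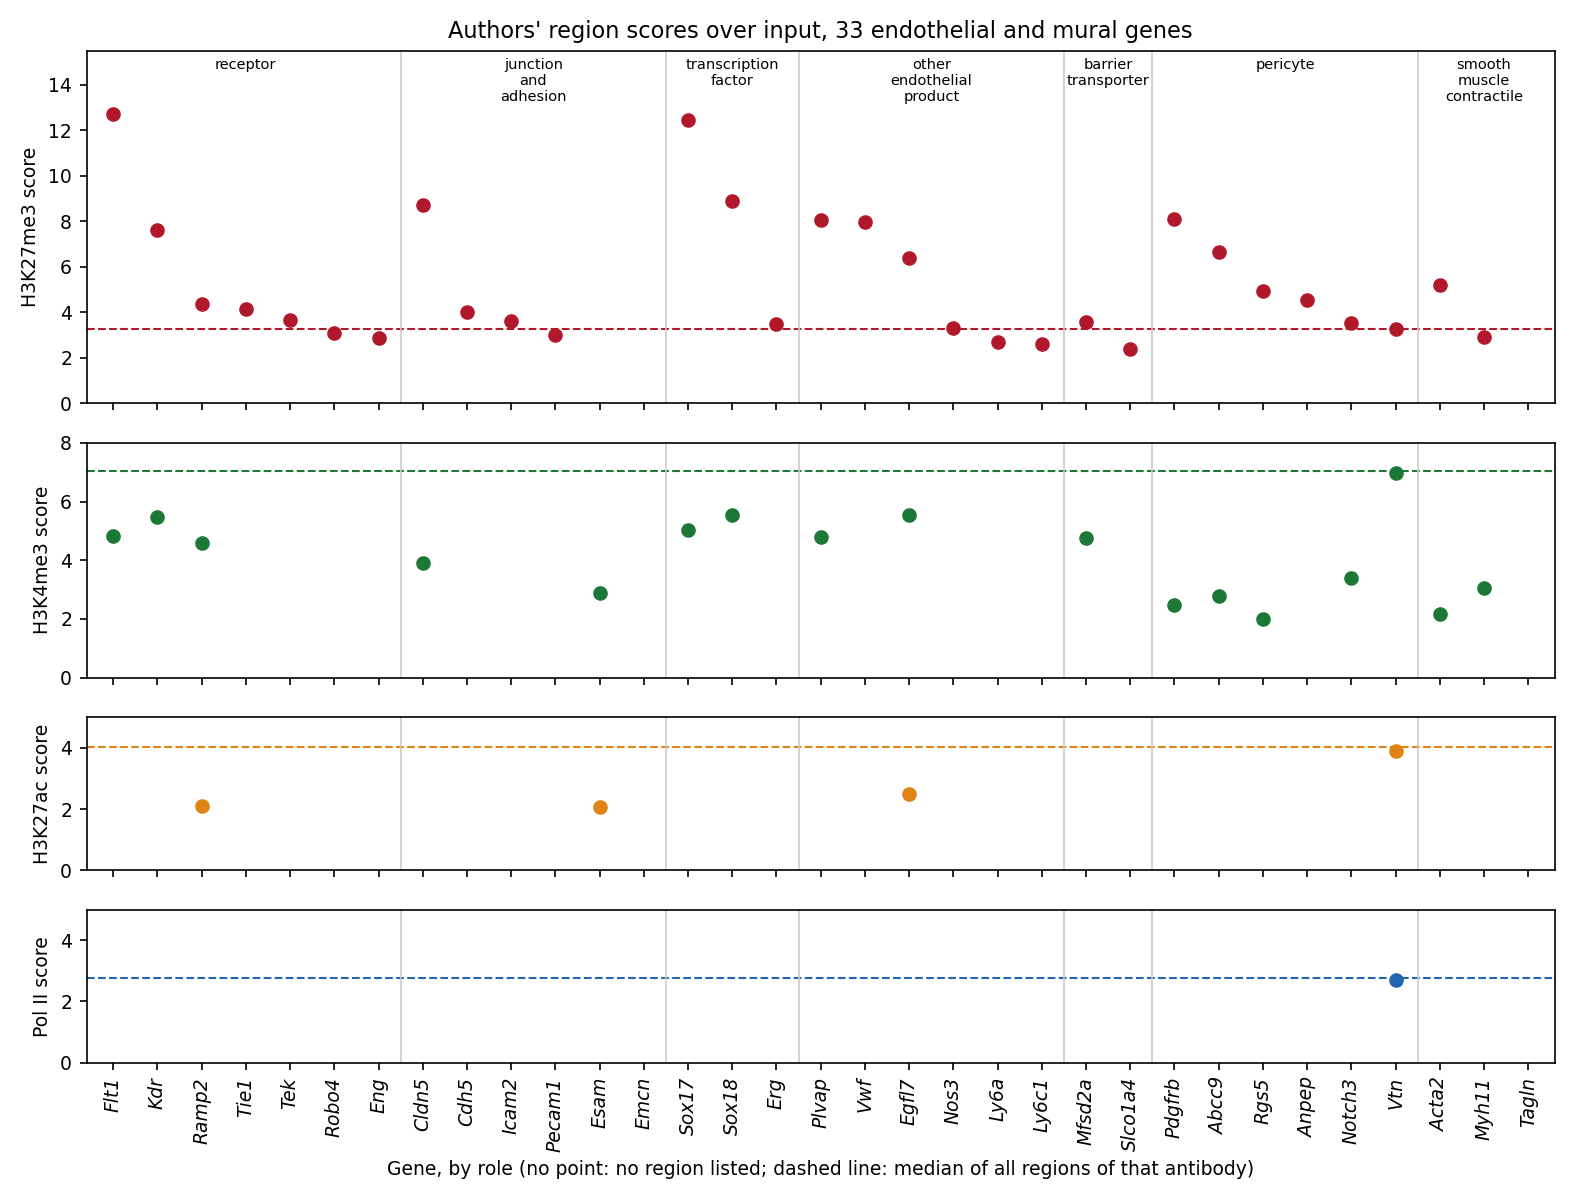
Score of the highest-scoring region of each of the 33 genes in each list (vertical axes, the authors' score over input, 1 panel per antibody), with genes ordered by role. Dashed lines give the median of all regions of that antibody; 23 of 30 H3K27me3 scores lie at or above it, and none of the 17 H3K4me3, 4 H3K27ac and 1 Pol II scores do. Scores of different antibodies are not on a known common scale.

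The endothelial receptors included the gene with the highest H3K27me3 score of the 33. Flt1, which encodes VEGF receptor 1, scored 12.7 over a 135.5 kb region on chromosome 5 (mm9, 148518701 to 148654200), higher than 99.4% of all H3K27me3 regions. Kdr, which encodes VEGF receptor 2, the main signalling receptor for VEGF-A, scored 7.62 over 104.5 kb. Both had H3K4me3, with scores of 4.83 and 5.46 that were above only 24.3% and 30.2% of H3K4me3 regions. The angiopoietin receptor gene Tek and its relative Tie1 had H3K27me3 alone, over 22.7 kb with a score of 3.65 and over 51.3 kb with a score of 4.12. Eng, which encodes the TGF-beta co-receptor endoglin, and Robo4, which encodes an endothelial Roundabout receptor, also had H3K27me3 alone, with lower scores of 2.87 and 3.08. Ramp2, a partner of the adrenomedullin receptor, differed from the other receptors in having H3K27ac as well, described below. All 7 receptor genes thus had H3K27me3 and 3 of them had H3K4me3.

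Of the 3 endothelial transcription factor genes, the SoxF factors had high H3K27me3 scores and the ETS factor did not. Sox17 scored 12.4 over 50.4 kb on chromosome 1 (mm9, 4456501 to 4506900), above 99.3% of H3K27me3 regions, and carried the widest H3K4me3 region of the 33 genes, 14.7 kb. Sox18 scored 8.90 over a narrower region of 11.7 kb, with 6.5 kb of H3K4me3. Erg had H3K27me3 alone, with a score of 3.48 over 16.6 kb.

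Junction and adhesion genes were less uniform. Cldn5, which encodes the main claudin of the blood-brain barrier, was bivalent, with H3K27me3 of 29.6 kb and a score of 8.69 (chromosome 16, mm9, 18769001 to 18798600) around 5.5 kb of H3K4me3. Cdh5 (VE-cadherin), Icam2 and Pecam1 (CD31) had H3K27me3 alone, with scores of 4.003, 3.59 and 2.98. The Icam2 region spanned 56.6 kb and was also listed for Prr29 and the muscle sodium channel gene Scn4a. Pecam1 had 2 H3K27me3 regions of 11.9 and 11.2 kb that lay 1.4 kb apart. Esam and Emcn were the members of this group without H3K27me3.

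Other endothelial products all had H3K27me3, but over very different widths. Vwf, which encodes von Willebrand factor, had the widest region of the 33 genes, 181.7 kb with a score of 7.96 (chromosome 6, mm9, 125438301 to 125620000). It was also listed for Cd9, whose own 5.8 kb H3K4me3 region lay inside it, and Vwf had no H3K4me3 of its own. Plvap, which encodes the diaphragm protein of fenestrated endothelium, was bivalent with an H3K27me3 score of 8.06 over 25 kb. Nos3 (endothelial nitric oxide synthase), Ly6a and Ly6c1 had H3K27me3 alone, over 8.8, 7.4 and 12.3 kb and with scores of 3.32, 2.70 and 2.58. Ly6c1 lies beside a near-identical gene, Ly6c2, so its reads could be split or lost. Of the barrier transporter genes, Slco1a4, an organic anion transporter gene, had the lowest H3K27me3 score of the 30 genes with a region, 2.38 over 5.0 kb, and Mfsd2a, the lysolipid transporter gene, had 3.57 over 11 kb with 10.4 kb of H3K4me3.

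Mural genes had H3K27me3 as often as endothelial genes, at 8 of 9 against 22 of 24. H3K4me3 was listed for 7 of the 9 mural genes (77.8%) and 10 of the 24 endothelial genes (41.7%). The share of all coding genes was 68.4%, so only the endothelial genes lay below it. The mural H3K4me3 scores were low, with a median of 2.80 against 4.81, and 4 of the 5 members with an H3K4me3 score under 3 were mural. Pdgfrb, the receptor that recruits pericytes, had an H3K27me3 score of 8.08 over 60.5 kb and an H3K4me3 score of 2.47. Abcc9, a subunit gene of the pericyte ATP-sensitive potassium channel, had 55.1 kb of H3K27me3 with a score of 6.65 and H3K4me3 with a score of 2.80. Rgs5 and Acta2 (smooth muscle actin) had H3K27me3 scores of 4.95 and 5.21, while their H3K4me3 scores of 2.01 and 2.16 were close to the lowest score listed, which was just over 2. Notch3 and Myh11, the smooth muscle myosin gene, had H3K27me3 regions of 5.8 and 5.4 kb, the narrowest of the mural genes. Anpep, which encodes aminopeptidase N (CD13), had 45.7 kb of H3K27me3 and no H3K4me3.

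H3K27me3 was somewhat wider and H3K4me3 weaker at these genes than across the lists. The widest H3K27me3 region per gene had a median of 23.9 kb over the 30 genes (5.0 to 181.7 kb), against 15.9 kb over the 8929 coding genes with H3K27me3, and it was wider than 50 kb at 8 genes (26.7%) against 17.8%. The median score was 4.06 against 3.59, and 23 of the 30 genes (76.7%) reached the median of all regions, 3.24, against 59.0% of coding genes with H3K27me3. For H3K4me3 the direction was the other way. None of the 17 genes reached the median of all H3K4me3 regions, 7.05, whereas 54.1% of coding genes with H3K4me3 did, as did 26.9% of coding genes with both H3K4me3 and H3K27me3. The highest of the 17 was Vtn with 6.97, followed by Sox18 with 5.56 and Egfl7 with 5.54. These shares are descriptions of single libraries and carry no test.

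H3K27me3 differed between members with and without H3K4me3. At the 16 genes with both marks the median H3K27me3 score was 6.53 and the median width 25.2 kb. At the 14 with H3K27me3 and no H3K4me3 they were 3.40 and 19.7 kb, and Vwf alone of these scored above 5. The same order held across coding genes, with median scores of 4.27 and 3.14 in genes with and without H3K4me3.

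**Figure D2:**
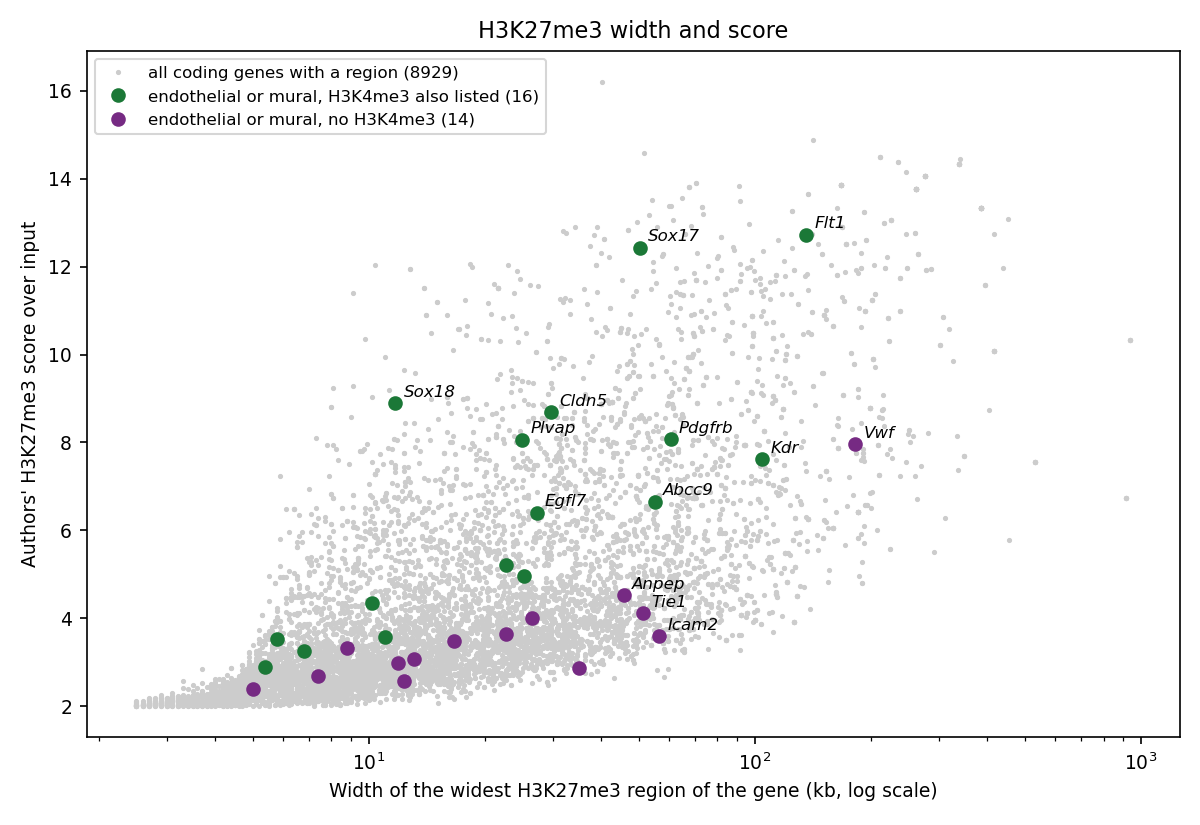
Each point is a gene; the horizontal axis gives the width of its widest H3K27me3 region (kb, log scale) and the vertical axis its highest score. Grey points are the 8929 coding genes with H3K27me3, green points the 16 vessel genes with H3K4me3 and purple points the 14 without. Flt1 and Sox17 lie near the top, Vwf farthest to the right, and the purple points, except Vwf, stay below a score of 5.

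Where both marks were listed, the H3K4me3 region usually lay within the H3K27me3 region. It lay wholly inside at 10 of the 16 genes (62.5%), against 45.1% of the 5091 coding genes with both, and was partly covered at the other 6. At Kdr, Pdgfrb and Acta2 the H3K27me3 region reached about as far upstream as downstream of the middle of H3K4me3: 54.9 and 49.7 kb at Kdr, 29.9 and 30.7 kb at Pdgfrb, and 11.7 and 10.9 kb at Acta2. At Flt1 it reached 117.6 kb upstream and 17.95 kb downstream, and at Abcc9 43.6 and 11.5 kb. The reach was longer downstream at 6 of the 16 genes (37.5%), against 40.3% of coding genes with both marks.

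**Figure D3:**
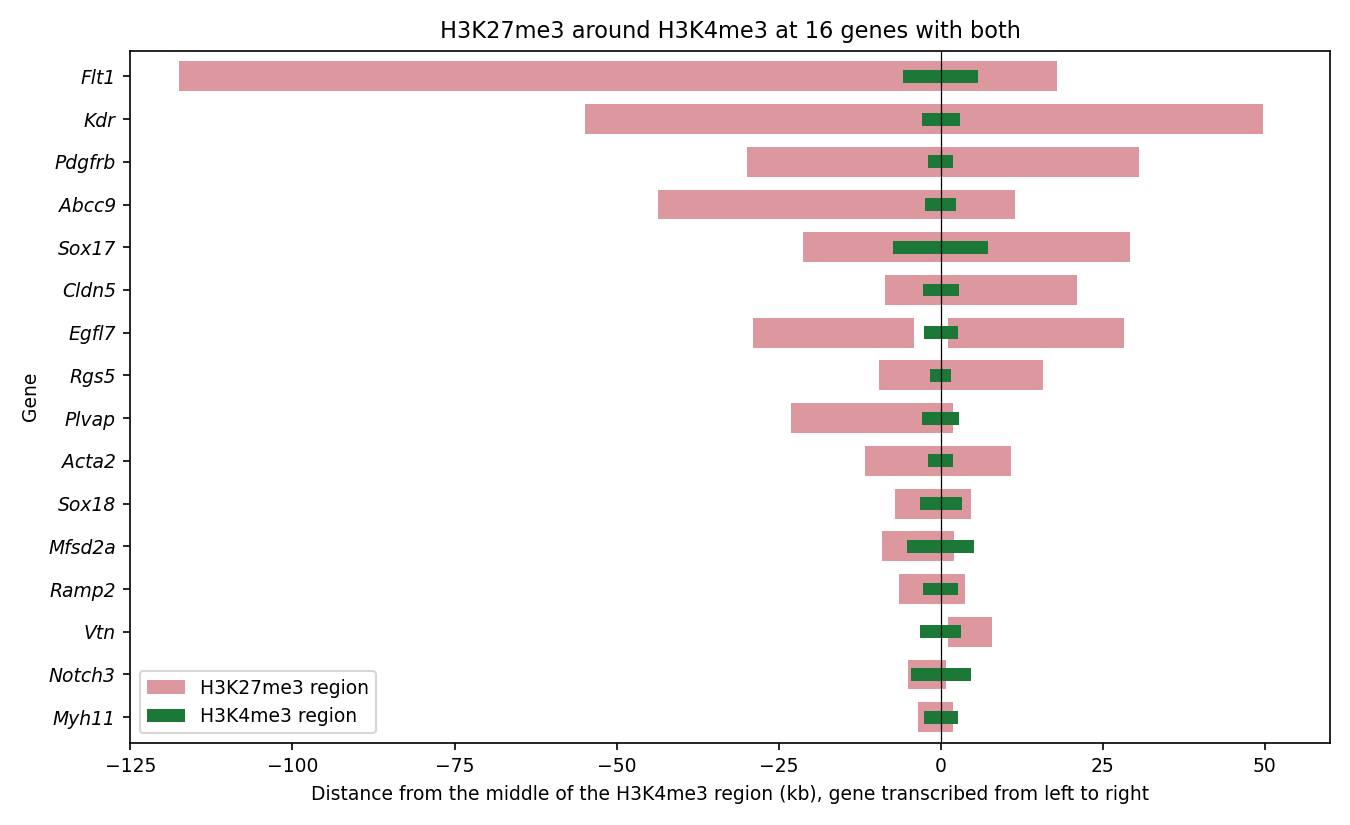
H3K27me3 regions (red) and H3K4me3 regions (green) of the 16 genes with both, drawn to scale as distance in kb from the middle of the H3K4me3 region, each gene turned so that transcription runs from left to right. The red bars range from 5.4 kb at Myh11 to 135.5 kb at Flt1; at Egfl7 the H3K4me3 region overlaps the downstream of 2 red bars and lies apart from the upstream one, and at Vtn it extends outside the red bar.

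The 4 genes with H3K27ac are described in turn. Egfl7 encodes a secreted endothelial protein and hosts miR-126, a microRNA known for its abundance in endothelial cells. It had H3K27me3 regions of 24.8 and 27.2 kb, and the gap of 5.3 kb between them held most of a 5.2 kb H3K4me3 region (chromosome 2, mm9, 26439901 to 26445100) and a 4.8 kb H3K27ac region with a score of 2.50. Of the H3K4me3 region, 28.8% overlapped the downstream H3K27me3 region, whose score was 6.40, and the upstream one, with a score of 3.85, did not touch it. The authors listed the H3K4me3, H3K27ac and downstream H3K27me3 regions for the microRNA transcript too. The downstream H3K27me3 region was also listed for the coding gene Agpat2, whose own 5.1 kb H3K4me3 region lay inside it. The mature microRNA sequence in RefSeq (GRCm38.p6, chr2:26591402-26591423, plus strand) is shown because these regions were listed for its transcript, with the seed, bases 2 to 8, in capitals.
mmu-miR-126a-3p: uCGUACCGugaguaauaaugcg

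Ramp2 and Esam had H3K27ac scores of 2.10 and 2.07, above only 2.63% and 1.97% of H3K27ac regions. At Ramp2 the 4.5 kb H3K27ac region lay wholly inside the 10.2 kb H3K27me3 region (chromosome 11, mm9, 101101201 to 101111400), and H3K4me3 over 5.4 kb scored 4.59. Esam, which encodes an endothelial adhesion molecule, had 5.5 kb of H3K4me3 with a score of 2.90 and 3.5 kb of H3K27ac (chromosome 9, mm9, 37336501 to 37340000), with no H3K27me3. None of these regions was listed for another gene. These H3K27ac scores lie near the lowest listed, and whether nuclei of other cells in the sort contributed to them was not tested.

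Vtn was the only member with Pol II, and each of its regions is shared. Vtn encodes vitronectin, an extracellular matrix protein made by brain pericytes. Its 6.3 kb H3K4me3 region (chromosome 11, mm9, 78307301 to 78313600), 5.2 kb H3K27ac region and 4.7 kb Pol II region, with scores of 6.97, 3.91 and 2.71, were all listed for Sarm1 as well. Sarm1 lies on the opposite strand and encodes an NAD-cleaving enzyme of axon degeneration. A 6.8 kb H3K27me3 region listed for Vtn, Sarm1 and Sebox covered 33.3% of the H3K4me3 region, on the side towards which Vtn is transcribed. Which of the genes the active marks belong to cannot be told apart in these lists.

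Most H3K27me3 regions were listed for the vessel gene alone. At 24 of the 30 genes an H3K27me3 region was listed for no gene outside the 33, and at 6 (Tie1, Vwf, Pdgfrb, Sox18, Icam2 and Vtn) each region was shared. Pdgfrb shared with Cdx1 and Slc6a7, and Sox18 with Tcea2. The Pdgfrb and Sox18 regions met active chromatin only at an edge: a 4.8 kb H3K27ac region of Slc6a7 overlapped the former by 700 bp, and a 4.9 kb H3K27ac region of Tcea2 overlapped the latter by 300 bp. Of the 64 nearest coding genes on either side, by gene order in the GRCm38.p6 annotation and excluding members, 37 (57.8%) had H3K27ac and 29 (45.3%) had Pol II, near the backgrounds above. In all, 26 of the 33 genes (78.8%) adjoined at least 1 gene with H3K27ac. The same share was not computed for all coding genes, so this count is not shown to be particular to vessel genes. Flt1 lay between Pan3 and Pomp, which both had H3K27ac and Pol II and no H3K27me3. Tagln, with no region, lay between Pcsk7 and Sidt2, which also both had H3K27ac and Pol II.

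Promoter sequence was examined because H3K4me3 follows CpG content in general. RefSeq promoters (GRCm38.p6, 250 bases before to 50 after each start) were matched for 19 of the 33 genes (57.6%), too few for a summary over the group, so single genes are given. Among 14153 coding genes with 1 promoter in that table, H3K4me3 was listed for 19.2% of those with an observed over expected CpG ratio under 0.25 and for 97.0% of those at 0.75 or more. H3K27me3 went from 62.0% to 24.4% over the same range. The promoters shown are those with the highest and lowest ratio among genes with H3K4me3 (Mfsd2a and Acta2), the same among genes without it (Anpep and Slco1a4), each from genes with 1 promoter, and Vtn for its active marks. Every CpG is in capitals. The marks named are those listed for the gene, because promoters (GRCm38.p6) and regions (mm9) were not compared by position.
Mfsd2a (chr4:122961139-122961438, minus strand, H3K4me3 and H3K27me3): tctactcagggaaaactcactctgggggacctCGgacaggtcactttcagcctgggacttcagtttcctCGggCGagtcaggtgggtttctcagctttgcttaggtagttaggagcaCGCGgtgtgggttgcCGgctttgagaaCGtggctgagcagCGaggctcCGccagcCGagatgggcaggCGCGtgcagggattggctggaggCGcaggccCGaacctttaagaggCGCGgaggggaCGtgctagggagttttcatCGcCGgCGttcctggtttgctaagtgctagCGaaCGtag
Acta2 (chr19:34255324-34255623, minus strand, H3K4me3 and H3K27me3): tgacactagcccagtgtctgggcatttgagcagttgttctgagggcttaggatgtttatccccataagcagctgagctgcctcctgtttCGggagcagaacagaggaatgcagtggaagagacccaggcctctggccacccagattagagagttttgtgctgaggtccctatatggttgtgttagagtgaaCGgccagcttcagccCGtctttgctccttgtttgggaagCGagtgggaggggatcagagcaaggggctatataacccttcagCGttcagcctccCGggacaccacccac
Anpep (chr7:79848161-79848460, minus strand, H3K27me3): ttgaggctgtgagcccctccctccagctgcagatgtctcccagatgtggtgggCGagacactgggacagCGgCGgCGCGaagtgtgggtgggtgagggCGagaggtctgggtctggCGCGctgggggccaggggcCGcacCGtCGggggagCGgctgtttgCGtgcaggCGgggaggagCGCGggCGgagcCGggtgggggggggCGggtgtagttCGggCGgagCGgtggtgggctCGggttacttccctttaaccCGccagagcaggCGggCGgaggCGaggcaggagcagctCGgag
Slco1a4 (chr6:141856171-141856470, minus strand, H3K27me3): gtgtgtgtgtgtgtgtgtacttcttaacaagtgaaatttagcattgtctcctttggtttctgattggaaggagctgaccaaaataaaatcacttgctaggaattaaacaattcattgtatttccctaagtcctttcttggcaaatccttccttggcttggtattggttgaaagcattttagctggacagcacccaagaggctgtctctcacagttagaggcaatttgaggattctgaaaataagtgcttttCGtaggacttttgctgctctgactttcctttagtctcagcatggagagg
Vtn (chr11:78498870-78499169, plus strand, all 4 marks): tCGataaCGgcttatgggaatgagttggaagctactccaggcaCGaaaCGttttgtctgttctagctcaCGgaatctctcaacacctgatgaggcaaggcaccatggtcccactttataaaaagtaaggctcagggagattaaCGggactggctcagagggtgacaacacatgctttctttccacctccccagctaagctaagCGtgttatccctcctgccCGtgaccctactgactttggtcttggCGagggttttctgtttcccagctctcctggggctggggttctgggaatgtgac

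The Mfsd2a promoter held 22 CpGs (ratio 0.85) and that of Slco1a4 held 1 (ratio 0.082), and H3K4me3 was listed for Mfsd2a and not for Slco1a4. Anpep did not follow this order. The Anpep promoter held 28 CpGs, with a ratio of 0.81 and a G+C content of 72.3%, yet no H3K4me3 region was listed for the gene. Erg, which has several promoters, also had no H3K4me3. The most CpG-rich of them held 16 CpGs (ratio 0.94), and the others held 4 and 2 (ratios 0.28 and 0.19). Promoters and regions were not compared by position, so Erg cannot be placed in this order. Acta2 and Rgs5 held 6 CpGs each (ratios 0.27 and 0.29) and had the weak H3K4me3 regions given above, and Vtn held 9 (ratio 0.45). Flt1 and Kdr, both bivalent, had 29 and 19 CpGs. Tek, Eng and Robo4, with H3K27me3 alone, had 3, 6 and 2. An ETS motif was searched in a strict form, CCGGAA or TTCCGG on the other strand, and shorter or other forms were not searched. This strict form was found in 19.1% of all 20488 promoters. Of the matched vessel genes, only Kdr had it, at position -153 counted from the start. The short SOX motif ACAAT, or ATTGT on the other strand, was found in 26.9% of all promoters. Counted by gene, 6 of the 19 matched vessel genes had it: Slco1a4 (3 times), Tek, Robo4 and Erg (2 times each), Emcn and Rgs5 (1 time each). Some genes have several promoters, so the 2 counts differ in unit. The CArG box, which serum response factor binds in smooth muscle genes, was searched in its strict form, CC, then 6 bases that are A or T, then GG, and forms with a mismatch were not searched. It was found in 1.51% of all promoters and in none of the matched vessel promoters, which says only that these letters are not in these windows.

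Further vessel genes outside the 33 were grouped in 6 lists to see how far the pattern went. The shares over all coding genes were 42.5% for H3K27me3, 68.4% for H3K4me3, 51.5% for H3K27ac and 41.7% for Pol II. Other endothelial surface and secreted proteins (18 genes) had no active mark. H3K27me3 was listed for all 18 and H3K4me3 for 9, with no H3K27ac or Pol II region at any of them. Icam1, a leukocyte adhesion molecule, Procr, the protein C receptor, and Thbd, thrombomodulin, had the highest H3K27me3 scores, 9.02, 6.86 and 6.51. The Icam1 region was also listed for Icam4 and Icam5, and the Thbd region for Sstr4. Of 25 other pericyte and smooth muscle genes, 20 had H3K27me3, 15 had H3K4me3, 3 had H3K27ac and 4 had Pol II. The developmental factors Tbx18, Zic1 and Foxd1 led this list with H3K27me3 scores of 13.4, 12.2 and 11.8, Tbx18 and Foxd1 with weak Pol II (2.18 and 2.29). The Zic1 H3K27me3 region was also listed for Zic4. Gucy1a1, a subunit of the nitric oxide receptor guanylate cyclase, had H3K27ac of 8.45 and no H3K27me3, and Ndufa4l2 and Tpm2 had H3K27ac of 3.68 and 2.02. Of 8 perivascular fibroblast genes, 6 had H3K27me3 and H3K27ac or Pol II was listed for none, with Pdgfra (10.04), Col1a1 (5.48) and Col1a2 (3.70) highest.

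Nearly all other endothelial transcription factor genes had both H3K4me3 and H3K27me3. Of 20 such genes all had H3K4me3 and 18 had H3K27me3 as well, with a median H3K27me3 width of 64.9 kb. Foxc1, Tal1 and Lef1, the last a factor of Wnt signalling, scored highest with 14.9, 12.7 and 12.03. The Tal1 H3K27me3 region was also listed for Pdzk1ip1. H3K27ac was listed for 4, Ets2 (9.28), Hey1 (8.22), Klf4 (4.77) and Elk3 (2.12), of which Ets2 and Hey1 had no H3K27me3. Pol II was listed for 6 (30.0%, against 41.7%): Ets2, Hey1 and Klf4 and, without H3K27ac and with H3K27me3, Tal1 (2.92), Gata2 (2.49) and Nr2f2 (2.45). Ets2 adjoins Erg in the annotation and had H3K4me3, H3K27ac and Pol II, where Erg had H3K27me3 alone.

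Active marks also occurred at ligand, receptor and barrier genes. Of 23 vascular ligands and receptors, 18 (78.3%) had H3K27me3 and 21 (91.3%) had H3K4me3, against 42.5% and 68.4% of coding genes. H3K27ac was listed for 7 (30.4%) and Pol II for 5 (21.7%), against 51.5% and 41.7%. H3K27me3 was highest at Notch1 (9.46), Dll4 (8.08), the Notch ligand of tip cells, and Edn1 (7.67), the endothelin gene. The Dll4 H3K27me3 region was also listed for Gm14207. The highest H3K27ac scores were those of Pdgfb (8.70), the ligand of the Pdgfrb receptor, Vegfa (6.75), the ligand of Kdr and Flt1, Nrp1 (5.87), a VEGF and semaphorin co-receptor, and Vegfb (4.88). An H3K27ac or Pol II region of Vegfb was also listed for Dnajc4. The ligand genes Pdgfb and Vegfa carried H3K27ac and Pol II, Vegfa with 10.9 kb of H3K27me3 besides, while their receptor genes Pdgfrb, Kdr and Flt1 carried neither active mark. Not all receptor genes lacked them: Nrp1 had H3K27ac and Pol II (2.78), and Nrp2 had H3K27ac (2.29) with H3K27me3 (6.57). Other ligand genes had H3K27me3 and neither active mark, among them Pgf, a ligand of Flt1, Angpt1 and Angpt2, ligands of Tek, and Apln, Edn1, Dll4 and Tgfb1. Of 22 barrier transporters and junction genes, 12 had H3K27me3, 19 had H3K4me3, 9 had H3K27ac and 6 had Pol II. Slc16a1, a lactate transporter gene, Cldn12, Tfrc, the transferrin receptor gene, and Adgra2 had the highest H3K27ac scores, 5.89, 5.52, 4.16 and 3.83. Cgnl1, Jam2 and Ocln, the occludin gene, had the highest H3K27me3 scores, 7.25, 6.89 and 6.86.

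Markers of other non-neuronal cells were set beside the vessel genes. Pdgfra and Cspg4 stand both among the oligodendrocyte markers and in the vessel lists above. H3K27me3 was listed for 11 of 12 astrocyte (91.7%) and 9 of 13 oligodendrocyte markers (69.2%), against 42.5% of all coding genes. H3K27ac was listed for 4 astrocyte markers (Slc4a4, Slc1a2, Aldoc and Sox9) and 2 oligodendrocyte markers (Mbp and Cnp). These are 33.3% and 15.4%, against 51.5% of coding genes. Pol II was listed for 2 astrocyte markers (Slc4a4 and Slc1a2) and 3 oligodendrocyte markers (Mbp, Cnp and Myrf). These are 16.7% and 23.1%, against 41.7% of coding genes. H3K4me3 was listed for 9 of each. The differences between these short lists and the 33 genes were not tested.

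**Figure D4:**
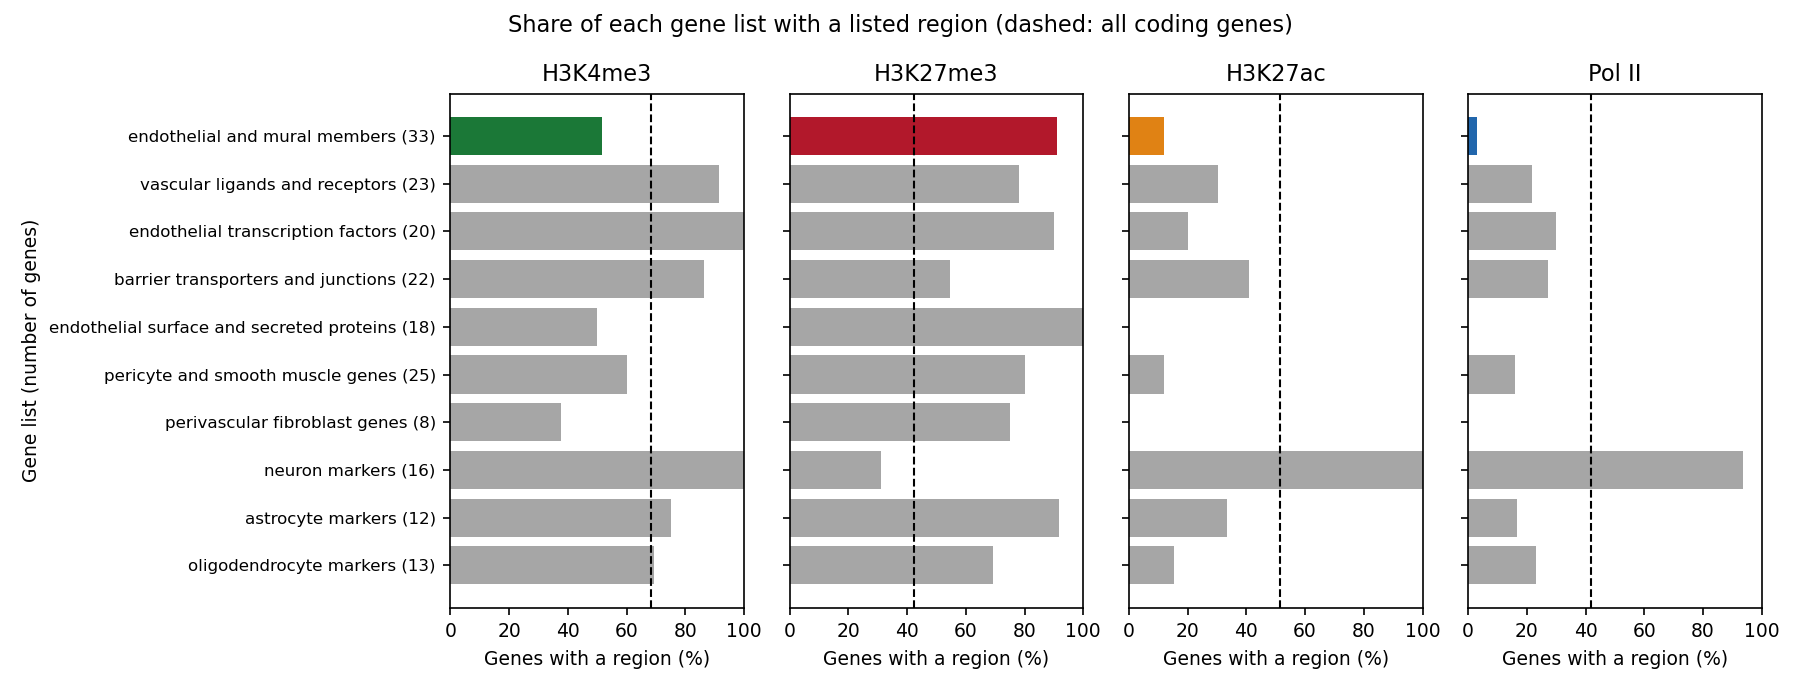
Percent of the genes of each list (rows, with the number of genes) for which a region of each antibody was listed; coloured bars are the 33 endothelial and mural genes and dashed lines all coding genes. The 33 genes lie above the line for H3K27me3 and below it for H3K4me3, H3K27ac and Pol II, while neuron markers are at 100% for H3K4me3 and H3K27ac.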

How the data were processed

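For each antibody (1 library, plus 1 input library for all) the authors deposited regions paired with RefSeq transcripts and a score over input of unknown scale and tool. The submitters' processing notes name Bowtie 0.12.7, MACS 1.4 and mm9, and the list names a reach of 3 kb around start sites. No score was below 2 and no region narrower than 2500 bp. Reads were not analysed here, and microglia markers and 1 gene that shares a region with a member are not reported here.

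Lines were matched by accession (97.4% to 98.0%), then by symbol, to RefSeq genes of GRCm38.p6, used for names and gene order; 0.244% to 0.669% stayed unmatched. Each gene was given the width of its widest and the score of its best region, and scores were compared within a list only. Coordinates of regions are mm9 and start at 1. The counting was tested on simulated lists. All 33 genes are named, and of the other vessel lists the 3 best H3K27me3 scores and the genes with active marks (the 4 best H3K27ac scores if over 6). Names of neighbours, and the limit of the promoters shown to genes with 1 promoter, were chosen after values were seen. Members and lists were chosen with earlier results of these data known. Alternatives were the upper 50% of each list, lists of equal length, unshared regions, the best or each region for width, and a stricter overlap. Python 3.11.15, numpy 2.4.6, pandas 2.3.3 and matplotlib 3.10.9 were used.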

Additional observations from a re-analysis of the deposited data

How the results depend on the processing

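The H3K27me3 count (30 genes) stayed between 23 and 30 in the upper 50% of each list by score, in lists of the same length (7799 regions) and with regions listed for no other gene. The H3K27me3 background was 25% in the upper 50% and 41% in lists of the same length. With regions listed for no other gene, no background was computed for any antibody. The median H3K27me3 width stayed between 22.7 and 26.5 kb. The H3K4me3 count of 17 fell to 0 in the upper 50% and to 1 (Vtn) in lists of the same length, where the background was 37.0% and 43.4%, and the count with both H3K4me3 and H3K27me3, 16, also fell to 0 and 1. A background for the pair was not computed in these settings. The H3K27ac count of 4 fell to 0 in the upper 50% (background 26.1%) and to 1 (Vtn) in lists of the same length (41.6%). It fell to 2 (Ramp2 and Esam) with regions listed for no other gene. The Pol II count of 1 fell to 0 in the upper 50% (background 21.2%) and to 0 without shared regions. In lists of the same length it stayed at 1 (Vtn, background 41.7%). Fewer regions are kept in each of these settings, except that lists of the same length keep every Pol II region. Requiring an overlap of 0.5 of the narrower region left 14 genes with both marks, all but Egfl7 and Vtn. Depth is unknown, so an unlisted region is not evidence that a mark is absent.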
